A study of Mus musculus with 54 samples.

Results

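The genes described here are the 2 receptors that bind corticosterone, *Nr3c1* (the glucocorticoid receptor) and *Nr3c2* (the mineralocorticoid receptor), and 8 genes known to respond to glucocorticoids, *Tsc22d3*, *Fkbp5*, *Sgk1*, *Zbtb16*, *Plin4*, *Ddit4*, *Pdk4* and *Cdkn1a*. They were chosen by symbol, and all 10 were among the 30031 genes of the deposited count table and among the 18941 genes that passed the filter on low counts. The libraries came from the suprachiasmatic nucleus (SCN), the hypothalamic seat of the central circadian clock. The tissue was cut by laser-capture microdissection from male C3H/HeH mice aged 10-12 weeks. These mice lived under 12 hr of light and 12 hr of dark and were housed singly before tissue was taken. No further treatment is described. At each of 6 zeitgeber times (ZT, hours after lights on), ZT2, ZT6, ZT10, ZT14, ZT18 and ZT22, there were 3 replicates called A, B and C, each a pool of tissue from 5 mice, and the RNA was amplified before sequencing. The deposited library names carry the letters WT, for wild type, at every timepoint. Lights went off at ZT12.

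In nocturnal rodents the adrenal gland releases corticosterone in a daily rhythm that rises towards the end of the light phase. The hormone enters cells, frees its receptor from a complex of heat shock proteins and immunophilins, and the receptor then binds DNA and switches on target genes, many of which limit inflammation or shift metabolism. Neurons of the adult SCN are known for containing very little glucocorticoid receptor, unlike most of the brain and the glial cells around them. Corticosterone itself was not measured in these mice, so the timepoints stand only for hours of the day.

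Between 15412981 and 35820945 reads per replicate were counted on genes (median 25075231). Levels are given as CPM (read counts scaled to library size after TMM normalization) and, where genes are compared with each other, as CPM per kb of annotated exon. A principal component analysis placed the libraries in 3 clusters, which paired ZT10 with ZT6, ZT18 with ZT14, and ZT2 with ZT22. The separation is named in the study as one of timepoint and sequencing batch, but the labels give no batch for any library, so the clusters only stand in for batches. Between clusters, timepoint and whatever else separated the libraries cannot be told apart, so differences inside a cluster (ZT10 minus ZT6, ZT14 minus ZT18 and ZT2 minus ZT22) are given for each of the 5 genes that changed over the cycle. ZT18 replicate C, the library with the fewest reads, stood apart from the other libraries of its cluster on the first component (23.7, against -0.5 or lower). All 8 SCN neuron markers were detected in every replicate, with *Vip*, a peptide of SCN core neurons, at a mean of 1850 CPM. The tissue is bulk, so fewer cells of a type and less RNA per cell cannot be told apart.

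Ranked per kb, *Tsc22d3* was the most abundant of the 10 genes, and *Nr3c1* was the second. *Tsc22d3* encodes GILZ, a leucine zipper protein that mediates anti-inflammatory actions of glucocorticoids, and its level was 34.8 ± 12.6 CPM per kb (SD over the 18 replicates), above *Nr3c1* in all 18. *Nr3c1* had 8.4 ± 2.64 CPM per kb and *Sgk1* 6.66 ± 3.85. These neighbours were not separated beyond their spread, since *Nr3c1* was the higher in 11 of 18 replicates. *Cdkn1a* (3.41 ± 1.53 CPM per kb), *Nr3c2* (3.3 ± 1.99) and *Ddit4* (2.49 ± 1.59) followed, with *Cdkn1a* above *Nr3c2* in 12 replicates and *Nr3c2* above *Ddit4* in 9. *Fkbp5* (1.89 ± 0.537), *Pdk4* (1.35 ± 0.636) and *Zbtb16* (1.26 ± 0.778) also overlapped, and *Plin4*, at 0.172 ± 0.187 CPM per kb, was the lowest and was below *Zbtb16* in 17 of 18 replicates.

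Over the 6 timepoints, 5 of the 10 genes changed (edgeR quasi-likelihood F-test, Benjamini-Hochberg adjusted over all tested genes), beside 44.0% of all tested genes. They were *Nr3c2*, *Tsc22d3*, *Sgk1*, *Zbtb16* and *Ddit4*. A gene was called cycling when it also passed JTK_CYCLE, a rank test for a 24 hr rhythm, and 4 of the 10 did (*Nr3c2*, *Tsc22d3*, *Sgk1* and *Ddit4*), beside 29.9% of all tested genes. Leaving out ZT14 replicate B reduced the genes that changed from 5 to 3. The mean was highest at ZT14, after lights off, for 6 of the 8 response genes (*Tsc22d3*, *Sgk1*, *Zbtb16*, *Plin4*, *Ddit4* and *Cdkn1a*) and at ZT6 lowest for 4 of them, while 18.6% of all tested genes had their highest mean at ZT14 and 26.6% their lowest at ZT6. In 1 edgeR test of the 3 differences inside the library clusters, 0 of the 10 passed, beside 0.116% of all tested genes, and 3 (*Tsc22d3*, *Sgk1* and *Zbtb16*) had an unadjusted p under 0.05, beside 11.7%.

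**Figure D1:**
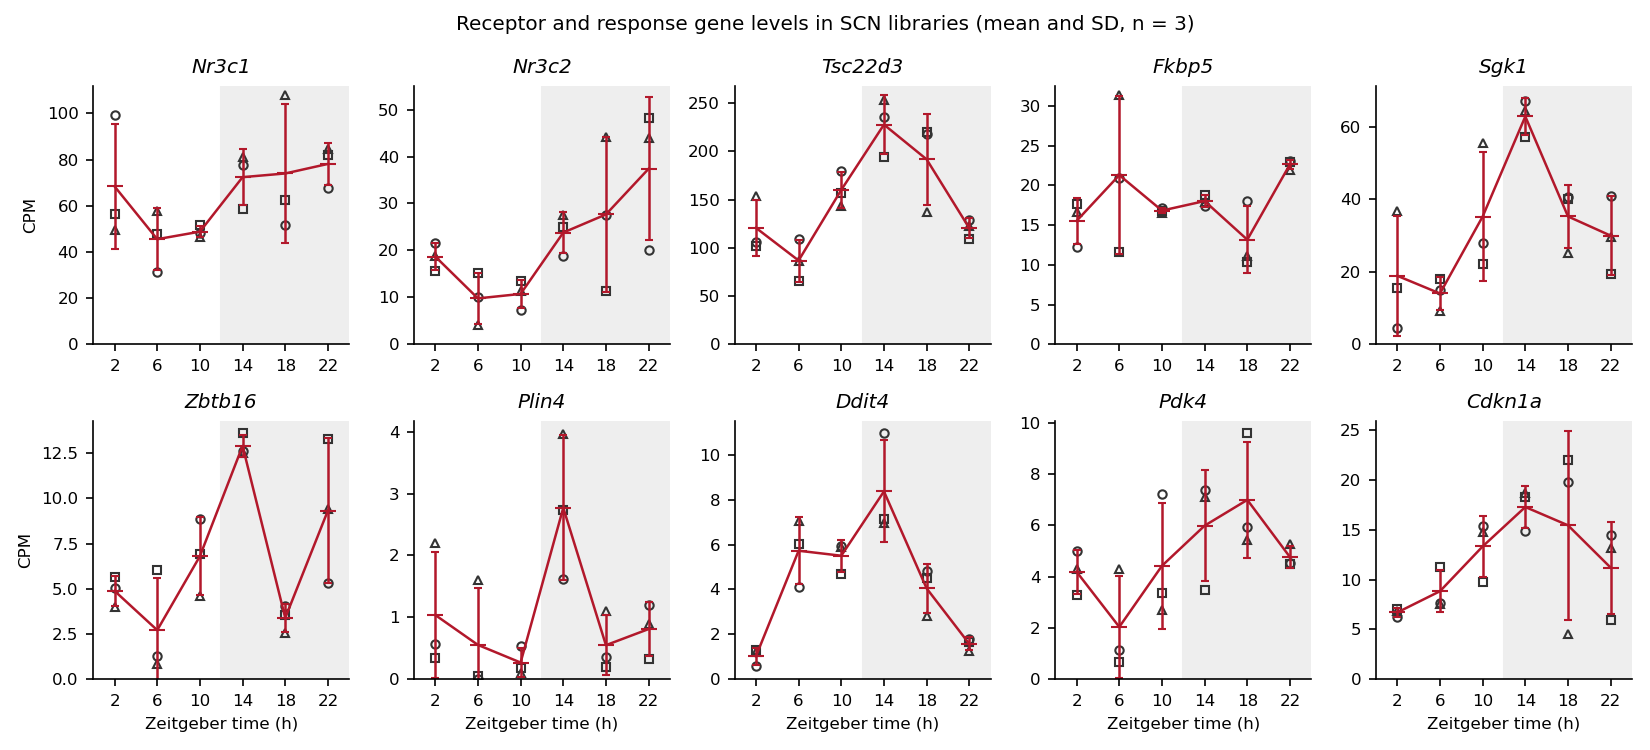
CPM of the 10 genes (vertical axes, from 0) against zeitgeber time in hours, with replicate A as circles, B as squares and C as triangles. Red lines join the means, bars are the SD of 3 replicates (cut off at 0) and grey marks the dark phase. The 3 ZT14 replicates of *Sgk1* lie between 57.1 and 67 CPM, above every other library.

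*Nr3c1* was detected in every replicate, with 716 to 2945 counts. In replicates A, B and C its level was 99.5, 56.3 and 49.3 CPM at ZT2, 31.1, 47.9 and 57.5 CPM at ZT6, and 48.2, 51.5 and 46.6 CPM at ZT10. In the dark phase it was 77.7, 58.5 and 80.9 CPM at ZT14, 51.5, 62.4 and 108 CPM at ZT18, and 67.8, 81.9 and 84.6 CPM at ZT22. The means were lowest at ZT6 and ZT10 (45.5 ± 13.4 and 48.8 ± 2.49 CPM) and highest at ZT22 (78.1 ± 9.02 CPM, SD, n = 3). The time test did not pass (adjusted p = 0.128 in edgeR), and neither did JTK_CYCLE, whereas a cosinor regression passed (adjusted p = 0.0413 in limma). Inside the clusters its log2 differences were small beside their errors, 0.10 ± 0.29 (SE) for ZT10 minus ZT6, -0.03 ± 0.29 for ZT14 minus ZT18 and -0.19 ± 0.29 for ZT2 minus ZT22.

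*Nr3c2* (chr8:76899442-77245012, plus strand, GRCm38) binds corticosterone with higher affinity than *Nr3c1* does and is best known in hippocampal neurons. Its level in replicates A, B and C was 21.5, 15.7 and 18.9 CPM at ZT2, 10.1, 15.1 and 4.12 CPM at ZT6, and 7.37, 13.4 and 11.4 CPM at ZT10. It was 18.9, 25.0 and 27.5 CPM at ZT14, 27.5, 11.3 and 44.2 CPM at ZT18, and 20, 48.2 and 44.0 CPM at ZT22. All 3 replicates of ZT22 and of ZT14 were above all of ZT6 and ZT10, whereas the ZT18 replicates spread across most of the range. *Nr3c2* changed with time (adjusted p = 0.0137 in edgeR) and was called cycling with a peak at ZT18 (JTK_CYCLE p = 0.013, exact null distribution, adjusted over 6 lags), and both calls held when any 1 replicate was left out. The cycling call was lost when the JTK_CYCLE p was adjusted over all genes (adjusted p = 0.0528, exact null distribution). The mean at ZT22 was 3.82 times that at ZT6, but these timepoints belong to different clusters. The largest difference inside a cluster was ZT2 minus ZT22, at -1 ± 0.47 on the log2 scale (adjusted p = 1), and ZT10 minus ZT6 was 0.13 ± 0.47 and ZT14 minus ZT18 was -0.21 ± 0.47. Of its exon bases, 3.82% are shared with the antisense gene *Gm10649*, and whether the counting used strand is not given in the sources used here.

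The ratio of *Nr3c1* to *Nr3c2*, each per kb, was above 1 in all 18 replicates and ranged from 1.43 (ZT22 replicate B) to 11.8 (ZT6 replicate C). Its geometric means in the light phase were 2.95 (ZT2), 4.33 (ZT6) and 3.95 (ZT10), while the dark-phase timepoints ZT14, ZT18 and ZT22 had 2.57, 2.48 and 1.88. The test of a difference between timepoints did not pass (permutation test over the 18 replicates with 100000 resamples, p = 0.362). The exact permutation tests inside the clusters, which cannot go below p = 0.1 with 3 against 3, gave p = 1 for ZT14 against ZT18, p = 1 for ZT10 against ZT6 and p = 0.2 for ZT2 against ZT22. ZT6 replicate C had 87 counts of *Nr3c2* and the other ZT6 replicates 234 and 319, and the ratio's p was 0.308 without it.

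**Figure D2:**
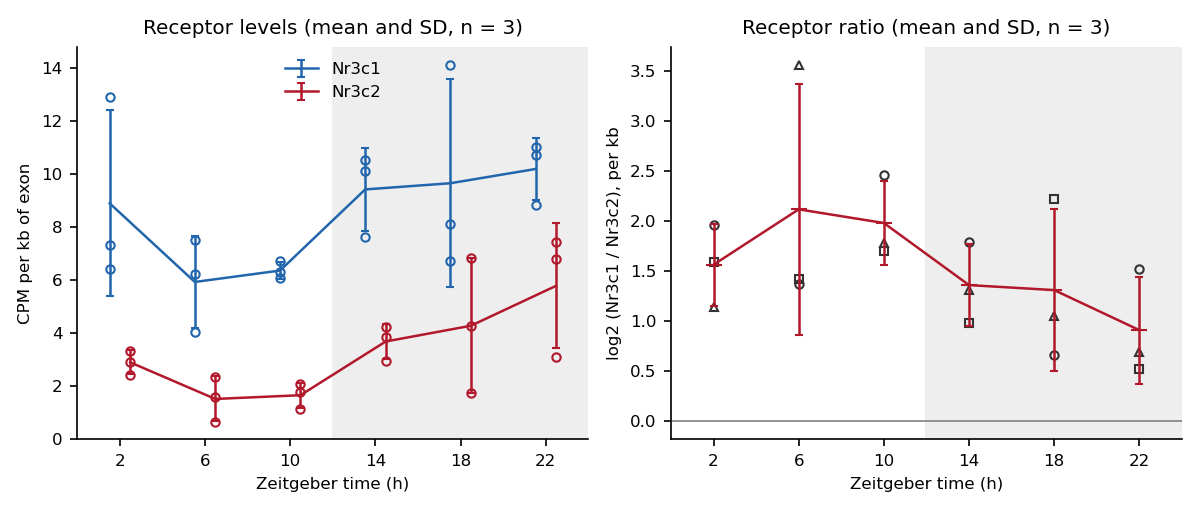
Left, CPM per kb of exon of *Nr3c1* (blue) and *Nr3c2* (red) against zeitgeber time, and right, the log2 ratio of *Nr3c1* to *Nr3c2* with replicates A (circles), B (squares) and C (triangles), points being replicates, bars the SD of 3 and grey the dark phase. *Nr3c1* lies above *Nr3c2* at every timepoint, and the mean log2 ratio runs from 2.11 at ZT6 to 0.91 at ZT22.

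*Tsc22d3* lies at chrX:140539528-140600659 on the minus strand. Its level in replicates A, B and C was 106, 102 and 154 CPM at ZT2, 109, 65.5 and 85.9 CPM at ZT6, and 180, 157 and 143 CPM at ZT10. It was 236, 194 and 253 CPM at ZT14, 218, 220 and 137 CPM at ZT18, and 129, 109 and 123 CPM at ZT22. Every replicate of ZT10 was above every replicate of ZT6, and every replicate of ZT14 above every replicate of ZT10. It changed with time (adjusted p = 0.000558 in edgeR) and was called cycling with a peak at ZT14 (JTK_CYCLE p = 0.000986, exact null distribution), with both calls kept whichever replicate was left out. Inside the ZT6 and ZT10 cluster it was 0.88 ± 0.22 higher at ZT10 on the log2 scale, from 86.9 ± 21.8 to 160 ± 18.4 CPM (unadjusted p = 0.000969, adjusted p = 0.234 in edgeR). DESeq2 called this difference (adjusted p = 0.0206). ZT14 minus ZT18 was 0.25 ± 0.22 and ZT2 minus ZT22 was 0.00 ± 0.22, and ZT18 replicate C was the only ZT18 library below all of ZT14.

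*Sgk1* (chr10:21882184-21999903, plus strand) encodes a kinase that raises the activity of ion channels and transporters, and its transcription is a classical target of both receptors. In replicates A, B and C it was at 4.41, 15.4 and 36.8 CPM at ZT2, 15.0, 17.9 and 9.08 CPM at ZT6, and 28.0, 22.2 and 55.4 CPM at ZT10. It was at 67.0, 57.1 and 64.3 CPM at ZT14, 40.5, 40.0 and 25.2 CPM at ZT18, and 41.0, 19.3 and 29.5 CPM at ZT22. The 3 ZT14 libraries were above the other 15. The mean at ZT14 (62.8 ± 5.13 CPM) was 4.49 times that at ZT6 (14.0 ± 4.47 CPM). *Sgk1* changed with time (adjusted p = 0.0259 in edgeR) and was called cycling with a peak at ZT14 (JTK_CYCLE p = 0.00473, exact null distribution). Both calls were lost without ZT2 replicate B, ZT6 replicate C or any of the 3 ZT14 replicates, with adjusted p for time then between 0.0508 and 0.0688 in edgeR. Inside the clusters the log2 differences were 1.33 ± 0.52 for ZT10 minus ZT6 (adjusted p = 0.406) and 0.83 ± 0.51 for ZT14 minus ZT18 (adjusted p = 0.529), each without overlap of replicates. ZT2 minus ZT22 was -0.66 ± 0.52, with overlap.

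The promoters of the genes, from 250 bases before to 50 bases after each RefSeq transcription start (assembly GRCm38.p6), were searched on both strands for the full glucocorticoid response element (AGAACA, any 3 bases, then TGTTCT), for the hexamer TGTTCT alone, which the full element contains, and for the clock elements E-box (CACGTG), D-box (TTATGTAA) and cAMP response element (TGACGTCA). Promoters were matched for 8 of the 10 genes, in 16 windows, but not for *Nr3c1* and *Zbtb16*. The full element occurred in 3 of 32851 promoters in the table (0.00913%), and 1 of these was an alternative *Sgk1* promoter inside the annotated *Sgk1* gene, where it begins 189 bases before the start. That window, chr10:21993640-21993939 on the plus strand, is shown because it is the only one of the 16 with the full element. Capitals mark, first, an E-box that overlaps a TGTTCT and, further on, the full element.

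Sgk1 alternative promoter: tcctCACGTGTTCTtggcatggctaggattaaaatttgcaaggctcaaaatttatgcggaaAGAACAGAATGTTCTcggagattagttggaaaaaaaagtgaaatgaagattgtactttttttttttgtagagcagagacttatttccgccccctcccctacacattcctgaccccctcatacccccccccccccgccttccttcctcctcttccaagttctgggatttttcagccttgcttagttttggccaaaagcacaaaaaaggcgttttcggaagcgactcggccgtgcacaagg

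The hexamer was found in 2 of the 8 matched genes (*Tsc22d3* and, in 3 of its 6 windows, *Sgk1*), beside 21.3% of all 27025 genes in the table, and the E-box in 2 (*Sgk1* and *Fkbp5*), beside 8.09%. No D-box or cAMP response element was found in the 16 windows, and these occurred in 1.11% and 2.03% of all genes. The windows around the matches in *Tsc22d3* and *Fkbp5* are given for comparison, on the minus strand of chrX:140600694-140600715 for *Tsc22d3* and of chr17:28486305-28486326 for *Fkbp5*, with the matched bases in capitals. A match describes the letters only, and binding of a receptor or clock factor was not measured.
Tsc22d3 hexamer: attcgacaTGTTCTaagttctg
Fkbp5 E-box: gggccagaCACGTGggcagcgg

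*Ddit4* (REDD1; chr10:59949669-59951834, minus strand), an inhibitor of the growth kinase mTOR that is induced by stress and glucocorticoids, had the largest fold difference between its highest and lowest timepoints among the 5 genes that changed. In replicates A, B and C it was at 0.565, 1.29 and 1.19 CPM at ZT2, 4.12, 6.01 and 7.05 CPM at ZT6, and 5.92, 4.69 and 5.90 CPM at ZT10. It was at 11, 7.14 and 6.98 CPM at ZT14, 4.80, 4.53 and 2.81 CPM at ZT18, and 1.81, 1.65 and 1.25 CPM at ZT22. All libraries of ZT22 and ZT2 lay below all libraries of the other 4 timepoints. *Ddit4* changed with time (adjusted p = 0.000288 in edgeR) and was called cycling with a peak at ZT14 (JTK_CYCLE p = 0.0015, exact null distribution), whichever replicate was left out. The mean at ZT14 (8.36 ± 2.25 CPM) was 8.22 times that at ZT2 (1.02 ± 0.394 CPM), across clusters. Inside the night cluster ZT14 was 1.04 ± 0.44 above ZT18 on the log2 scale without overlap (unadjusted p = 0.0306, adjusted p = 0.301 in edgeR). ZT10 minus ZT6 was -0.06 ± 0.44 and ZT2 minus ZT22 was -0.62 ± 0.46.

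*Zbtb16* (PLZF; chr9:48654297-48836222, minus strand), a zinc finger transcription factor strongly induced by glucocorticoids in many cells, had high means at ZT14 and ZT22 that were separated by a low one at ZT18. In replicates A, B and C it was at 5.03, 5.64 and 3.97 CPM at ZT2, 1.26, 6.01 and 0.852 CPM at ZT6, and 8.88, 6.94 and 4.58 CPM at ZT10. It was at 12.6, 13.6 and 12.5 CPM at ZT14, 4.06, 3.53 and 2.56 CPM at ZT18, and 5.29, 13.3 and 9.39 CPM at ZT22. The ZT14 replicates were close together and above all but ZT22 replicate B. *Zbtb16* changed with time (adjusted p = 0.0217 in edgeR; 0.0531 without ZT14 replicate B) and was not called cycling (JTK_CYCLE p = 0.796, exact null distribution). Inside the night cluster it was 3.79 times as high at ZT14 as at ZT18, a log2 difference of 1.92 ± 0.58 (unadjusted p = 0.0042, adjusted p = 0.139 in edgeR), which DESeq2 called (adjusted p = 0.0194). ZT10 minus ZT6 was 1.33 ± 0.58 and ZT2 minus ZT22 was -0.94 ± 0.57, neither called.

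The summed level of markers of telencephalic excitatory neurons was, like *Zbtb16*, highest at ZT14 and ZT22. The 5 markers summed to between 87.3 and 195 CPM at ZT14 and 56.4 to 217 CPM at ZT22, against 24.3 to 60.0 CPM at ZT18, 39.8 to 81.7 CPM at ZT2, 36.1 to 69.8 CPM at ZT10 and 16.3 to 17.6 CPM at ZT6. Among them *Slc17a7*, a vesicular glutamate transporter of cortical and hippocampal neurons, averaged 61.0 CPM at ZT14 and 51.9 CPM at ZT22 and between 9.7 and 22.5 CPM at the other timepoints. The sum was carried by *Slc17a7* and *Neurod6*. *Emx1* went otherwise, with 4.15 CPM at ZT10 against 1.94 CPM at ZT14 and 1.05 CPM at ZT22, and *Tbr1* was nearly as high at ZT10 (7.81 CPM) as at ZT22 (8.92 CPM). Of the 5, 3 changed with time, beside 44.0% of all tested genes, and none was at 0 in every replicate. *Neurod6*, *Emx1* and *Tbr1* are named here after their values were seen. The part of these cells in the *Zbtb16* result was not tested.

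**Figure D3:**
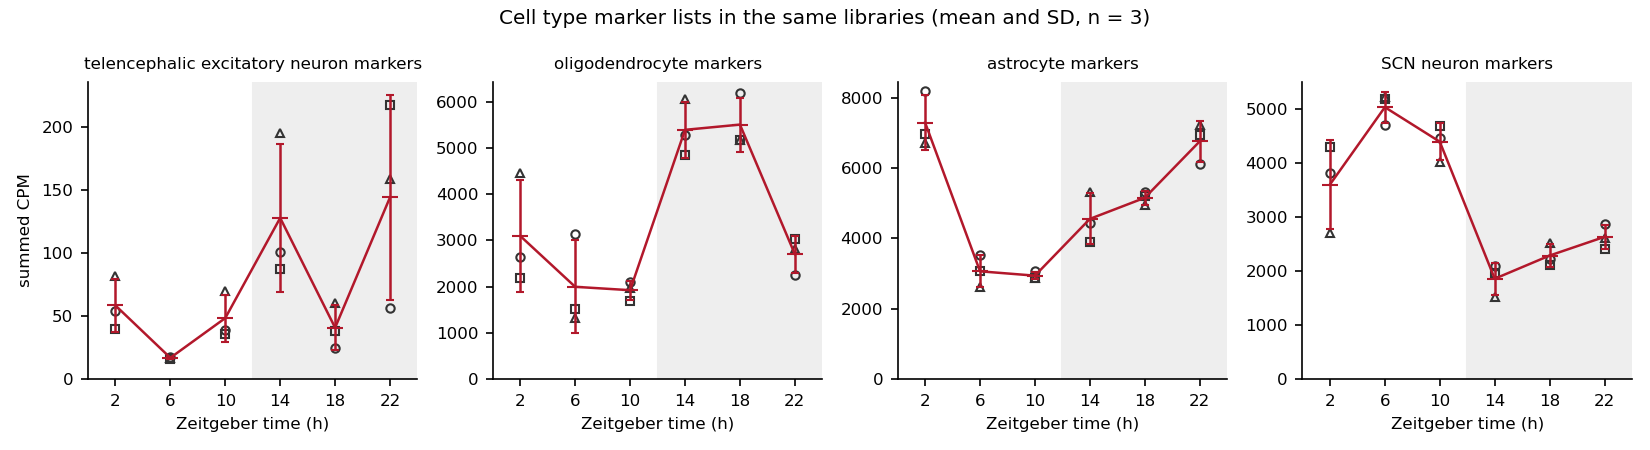
Summed CPM of 4 lists of cell type markers (vertical axes, from 0) against zeitgeber time, with replicates A (circles), B (squares) and C (triangles), the mean and SD of 3 in red and the dark phase in grey. Telencephalic markers are highest at ZT14 and ZT22, oligodendrocyte markers at ZT14 and ZT18, astrocyte markers at ZT2 and ZT22 and SCN neuron markers at ZT6 and ZT10.

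Glial markers also differed between the clusters, and the counts that follow stand beside the 44.0% of all tested genes that changed with time. The 8 oligodendrocyte markers, all changed with time, summed to 4850 to 6180 CPM at ZT14 and ZT18 and to 1330 to 4470 CPM elsewhere. The 7 astrocyte markers, also all changed, summed to 6100 to 8180 CPM at ZT2 and ZT22 and to 2610 to 5330 CPM elsewhere. Of these, 4 had their highest mean at ZT2, 2 at ZT18 and 1 at ZT22. *Gfap*, named after its values were seen, went otherwise than the sum, with 459 CPM at ZT18 against 149 CPM at ZT2 and 151 CPM at ZT22. The 8 SCN neuron markers, of which 7 changed and 7 were cycling, summed to 4030 to 5220 CPM at ZT6 and ZT10 and to 1520 to 4300 CPM elsewhere. As 7 of the 8 were themselves called cycling, this sum cannot give the share of SCN neurons in a library. The highest ZT2 sum lay inside the ZT10 range, and *Rorb*, named after its values were seen, went the other way (1120 CPM at ZT2 and 257 CPM at ZT10). *Mbp* led the oligodendrocyte list (1770 CPM on average) and *Aldoc* the astrocyte list (1750 CPM). Microglial markers (6 of 7 changed, led by *P2ry12*) summed to 105 to 277 CPM, endothelial markers (4 of 7, led by *Ly6c1*) to 127 to 308 CPM, mural cell markers (4 of 6, led by *Rgs5*) to 150 to 1010 CPM and markers of neighbouring hypothalamic neurons (3 of 8, led by *Sst*) to 25.0 to 226 CPM. The part of these cell types in the members' changes was not tested.

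The other 4 response genes did not pass the time test. *Fkbp5* (chr17:28399094-28517527, minus strand) encodes a co-chaperone that lowers the receptor's affinity for hormone and is a standard reporter of receptor activity, and its level stayed between 10.4 and 31.4 CPM over all libraries. It had its highest mean at ZT22 (22.7 ± 0.615 CPM) and its lowest at ZT18 (13.2 ± 4.2 CPM), with an adjusted p of 0.251 in edgeR and a JTK_CYCLE p of 1 (exact null distribution). Its 3 ZT22 libraries were above its 3 ZT2 libraries, by a log2 difference of 0.54 that did not pass the test (ZT2 minus ZT22, -0.54 ± 0.31, adjusted p = 1 in edgeR). At ZT10 and ZT14 it was at 16.8 ± 0.38 and 18.0 ± 0.717 CPM.

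*Cdkn1a* (chr17:29090976-29100727, plus strand), which encodes the cell cycle inhibitor p21, had its lowest mean at ZT2 (6.7 ± 0.432 CPM) and its highest at ZT14 (17.3 ± 2.11 CPM). Its time test gave an adjusted p of 0.125 in edgeR, and a cosinor regression passed (adjusted p = 0.0477 in limma). At ZT18 replicates A and B held 19.8 and 22.0 CPM and replicate C 4.58 CPM (619, 684 and 75 counts), and without replicate C the adjusted p was 0.00502 and *Cdkn1a* was also called cycling. ZT18 replicate C was below the mean of its timepoint for 7 of the 8 response genes, with a median deviation of -0.38 on the log2 scale. It held the highest ZT18 level of both receptors. Of the *Cdkn1a* exon bases, 7.68% are shared with a provisional gene model on the other strand, which was not analysed here.

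*Pdk4* (chr6:5483351-5496309, minus strand), a mitochondrial kinase that turns cells from glucose to fat as fuel, had its highest mean at ZT18 (6.99 ± 2.27 CPM) and its lowest at ZT6 (2.03 ± 1.98 CPM). It passed JTK_CYCLE (p = 0.00672, exact null distribution) and a cosinor regression (adjusted p = 0.0422 in limma) but not the time test (adjusted p = 0.228 in edgeR). *Plin4* (chr17:56100591-56109803, minus strand), a lipid droplet coat protein, was the least abundant, with 0 to 144 counts per library. Its ZT14 libraries held 58, 94 and 144 counts (1.62, 2.73 and 3.96 CPM) and its ZT10 libraries 11, 4 and 2 counts (0.534, 0.174 and 0.0944 CPM). ZT2 replicate C (2.2 CPM) and ZT6 replicate C (1.61 CPM) stood above the other replicates of their timepoints, and the time test gave an adjusted p of 0.265 in edgeR. Without ZT6 replicate C, *Plin4* and *Pdk4* both passed the time test, with adjusted p of 0.0123 and 0.0126.

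To set the hours around the rise of corticosterone against those around its trough, the mean of ZT10 and ZT14 was compared with the mean of ZT22 and ZT2. *Ddit4*, *Sgk1* and *Tsc22d3* were higher around the rise, which made 3 of the 10 genes in that direction beside 19.5% of all tested genes, and none was lower (34.4% of all tested genes were called in either direction). *Ddit4* averaged 6.93 CPM around the rise and 1.29 CPM around the trough, a log2 difference of 2.41 ± 0.33 (adjusted p = 1.66e-05 in edgeR). All 6 *Ddit4* libraries around the rise were above all 6 around the trough, and this was true of 12.8% of all tested genes and of no other of the 10. *Tsc22d3* averaged 194 and 121 CPM, a log2 difference of 0.66 ± 0.16 (adjusted p = 0.00292 in edgeR). *Sgk1* averaged 49.0 and 24.4 CPM, a log2 difference of 0.98 ± 0.37 (adjusted p = 0.0455 in edgeR). The comparison leaves out ZT6 and ZT18. *Ddit4* was already as high at ZT6 (5.73 CPM) as at ZT10 (5.5 CPM). At ZT6 and ZT10, *Tsc22d3* was at 86.9 and 160 CPM and *Sgk1* at 14.0 and 35.2 CPM. The calls of *Ddit4* and *Tsc22d3* held whichever replicate was left out, and that of *Sgk1* was lost in 12 of 18 cases. These were the libraries ZT2 A and B, ZT6 A, ZT10 A and C, ZT14 A, B and C, ZT18 A and B, and ZT22 B and C, with adjusted p for *Sgk1* between 0.05 and 0.144 in edgeR, while *Cdkn1a* was called without ZT18 replicate C (adjusted p = 0.00806). DESeq2 called 5 of the 10 (beside 41.3%), adding *Cdkn1a* as higher and *Nr3c2* as lower around the rise. In edgeR *Nr3c2* was at 17.3 CPM around the rise and 28.1 CPM around the trough (log2 difference -0.73 ± 0.33, adjusted p = 0.1), and *Nr3c1* at 60.6 and 73.2 CPM (-0.30 ± 0.21, adjusted p = 0.293). ZT22 and ZT2 form a cluster that holds neither ZT10 nor ZT14, so time of day and cluster cannot be told apart here.

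**Figure D4:**
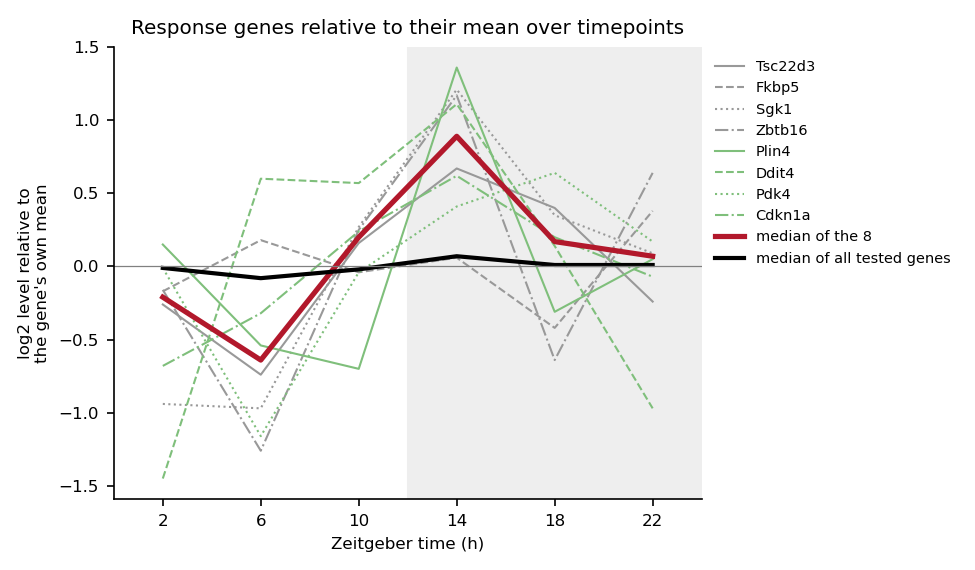
Level of each of the 8 response genes at each timepoint, as the mean of log2(CPM + 0.5) minus the gene's own mean over the timepoints (vertical axis), against zeitgeber time, with grey marking the dark phase. The median of the 8 (red) runs from -0.64 at ZT6 to 0.89 at ZT14, and the median of all tested genes (black) stays between -0.08 and 0.07. Normalization and the centring of each gene hold the black line near 0. Medians of other short lists, not drawn, ran from -1.24 at ZT6 to 1.1 at ZT14 (telencephalic markers) and from -0.19 at ZT10 to 0.23 at ZT14 (coregulators).

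The step across lights off, ZT14 minus ZT10, was positive for all 8 response genes (median log2 difference 0.56, against 0.12 for all tested genes) and for both receptors, except that *Fkbp5* was at -0.05 with upper-quartile normalization and -0.08 with reads recovered from the authors' normalized table. For the 24 other glucocorticoid-induced genes described below, the median of this step was -0.24. Among the related and marker lists, the medians ran from -1.37 (SCN neuron markers) to 1.44 (telencephalic excitatory neuron markers). The ZT14 replicates were all above the ZT10 replicates for 8 of the 10 genes, beside 25.3% of all tested genes. edgeR called 0 of the 10 at the adjusted threshold, beside 16.8%, and 3 (*Nr3c2*, *Tsc22d3* and *Plin4*) had an unadjusted p under 0.05, beside 30.1%. DESeq2 called 1, *Plin4*, beside 24.7%. The largest fitted difference was that of *Plin4*, 3.35 ± 1.39 on the log2 scale (adjusted p = 0.111 in edgeR), which was called without ZT6 replicate C, making 1 of the 10. *Nr3c2* was 1.15 ± 0.47 higher at ZT14 (adjusted p = 0.108) and *Fkbp5* 0.10 ± 0.31 (adjusted p = 0.868). This step lies between clusters.

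Inside the clusters, the approach to lights off (ZT10 minus ZT6) was positive for 5 of the 8 response genes, with a median log2 difference of 0.74 against 0.03 for all tested genes. edgeR called 0 of the 10 genes (beside 0.0475%), 3 had an unadjusted p under 0.05 (*Tsc22d3*, *Sgk1* and *Zbtb16*, beside 10.8%) and DESeq2 called 1 (*Tsc22d3*, beside 1.40%). The ZT10 replicates were all above those of ZT6 for *Tsc22d3* and *Sgk1*, which is 2 of the 10 beside 6.87%. From ZT14 to ZT18 the levels of 7 of the 8 response genes were the lower at ZT18, with a median ZT14 minus ZT18 of 0.64 against 0.01 for all tested genes. Here edgeR called 0 (beside 0.570%), 2 had an unadjusted p under 0.05 (*Zbtb16* and *Ddit4*, beside 13.5%) and DESeq2 called 1 (*Zbtb16*, beside 5.16%). The ZT14 replicates were all above those of ZT18 for 4 of the 10 (*Sgk1*, *Zbtb16*, *Plin4* and *Ddit4*), beside 11.6%.

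Across lights on, ZT2 minus ZT22, the median of the 8 response genes was -0.58 against -0.01 for all tested genes, and 6 of the 8 were lower at ZT2. edgeR called 0 of the 10 (beside 0.0317%), 1 had an unadjusted p under 0.05 (*Nr3c2*, beside 3.59%) and DESeq2 called 0 of the 6 to which it gave an adjusted p (beside 0.447%). Only *Fkbp5* had its ZT2 replicates all below those of ZT22, 1 of the 10 beside 5.98%. *Tsc22d3*, at 121 CPM on both sides, differed least.

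**Figure D5:**
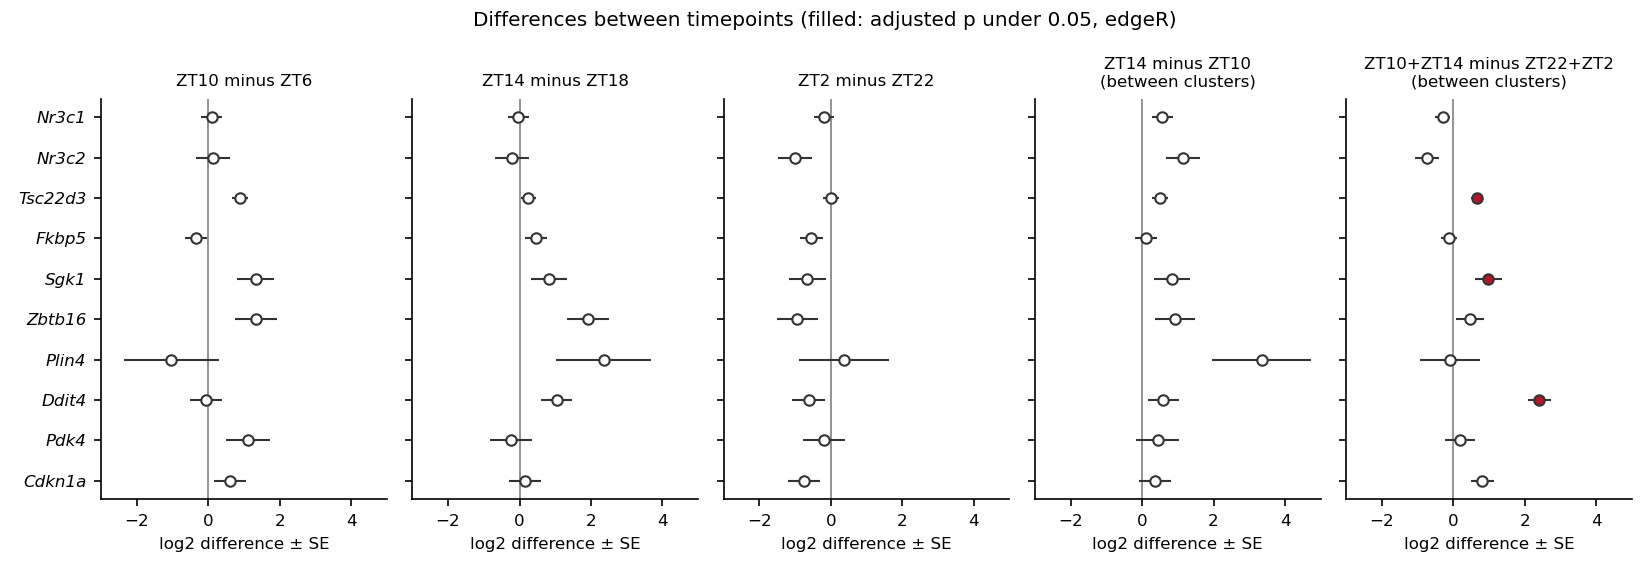
Fitted log2 differences (horizontal axes) with SE for the 10 genes in 5 comparisons, the first 3 inside and the last 2 between clusters of libraries. Filled points passed the adjusted threshold in edgeR, which were *Tsc22d3*, *Sgk1* and *Ddit4* in the comparison around the corticosterone rise.

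The machinery around the receptor was read from lists of related genes, of which 33 of the 56 tested changed with time, beside 44.0% of all tested genes. Inside the clusters, 3 of the 56 passed the test of a single difference, all in ZT14 minus ZT18 (*Crebbp*, *Per1* and *Fam107a*, the last named after its values were seen). Of all tested genes, 0.570% passed in ZT14 minus ZT18, 0.0475% in ZT10 minus ZT6 and 0.0317% in ZT2 minus ZT22. Of the 14 chaperones and co-chaperones that hold the receptor ready for hormone, 13 changed, and 11 of them were called cycling, beside 44.0% and 29.9% of all tested genes. The most abundant, *Hsp90ab1*, a constitutive HSP90, averaged 5110 CPM at ZT22 and 1270 CPM at ZT6 (adjusted p for time 0.000103 in edgeR). *Stip1*, which links HSP70 to HSP90, was highest at ZT18 (440 CPM) and lowest at ZT6 (122 CPM). It was 1.08 ± 0.21 higher at ZT14 than at ZT10 on the log2 scale, across clusters. *Ptges3* (p23), which stabilizes the mature receptor complex, was highest at ZT6 (1170 CPM) and lowest at ZT14 and ZT22 (455 CPM at each). *Ppp5c* was at 145 CPM at ZT18 and 13.5 CPM at ZT2, and *Stub1*, a ubiquitin ligase that shares 42.33% of its exon bases with *Jmjd8* on the other strand, at 92.1 CPM at ZT10 and 11.3 CPM at ZT2. The chaperones thus did not share a timepoint, with 4 of the 13 highest at ZT22, 4 at ZT18, 3 at ZT10 and 2 at ZT6.

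Of the 12 coregulators, 5 changed with time and 2 were cycling, which are shares near or below those of all tested genes (44.0% and 29.9%). *Crebbp*, a histone acetyltransferase and coactivator, was highest at ZT14 (103 CPM) and fell to 54.6 CPM at ZT18, a difference inside the night cluster that passed the test (0.91 ± 0.19 on the log2 scale, adjusted p = 0.0459 in edgeR). *Smarca4*, an ATPase of the SWI/SNF complex, was at 113 CPM at ZT14 and 25.2 CPM at ZT2. The most abundant members, *Ncor1* and *Ncoa1*, also changed, with means of 120 to 194 CPM and 91.0 to 151 CPM.

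Of the 8 genes that make, inactivate or export the hormone, *Hsd11b2*, which inactivates corticosterone, and *Serpina6*, the blood carrier, had too few counts to be tested. Of the other 6 only *Srd5a1*, a steroid reductase that shares 16.36% of its exon bases with *Gm17108*, changed, from 3.7 CPM at ZT2 to 15.4 CPM at ZT10 (adjusted p = 0.00607 in edgeR). *Hsd11b1*, which regenerates active hormone, was at 11.3 to 26.6 CPM (adjusted p = 0.261), and the efflux pump *Abcb1a* at 9.77 to 16.5 CPM (adjusted p = 0.261).

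Of 24 other genes known to be induced by glucocorticoids, 14 changed (58.3%, beside 44.0% of all tested genes) and 7 were cycling, a share near the 29.9% of all tested genes. Their highest means were spread, with 4 of the 14 at ZT6, 4 at ZT10, 3 at ZT14 and 1 at each of ZT18, ZT22 and ZT2. *Per1*, a clock gene that also responds directly to glucocorticoids and to light, was highest at ZT6 (70.0 CPM) and lowest at ZT22 (8.98 CPM), and it was the only one of the 56 related genes to pass the joint test of the 3 differences inside the clusters (adjusted p = 0.045 in edgeR). Its ZT14 minus ZT18 was 1.45 ± 0.29 on the log2 scale (adjusted p = 0.0324), while *Fam107a* was lower at ZT14 than at ZT18 (84.1 and 179 CPM, -1.09 ± 0.21, adjusted p = 0.0289). *Nfkbia*, an inhibitor of NF-kappaB, was at 64.1 CPM at ZT10 and 5.47 CPM at ZT2, and *Rhob*, a small GTPase, at 109 CPM at ZT6 and 24.6 CPM at ZT2. The metallothionein *Mt1*, the most abundant, was highest at ZT10 (1280 CPM). It was at 682 CPM at ZT14, across clusters (-0.91 ± 0.22 on the log2 scale, adjusted p = 0.00746 in edgeR). *Glul*, the glutamine synthetase of astrocytes, was highest at ZT22 (683 CPM), when the sum of the astrocyte markers was also high. Around the rise against the trough, 6 of the 24 were higher and 3 lower, beside 19.5% and 14.9% of all tested genes, with a median log2 difference of 0.02, while the median of the 8 response genes was 0.57 and that of all tested genes -0.03.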

How the data were processed

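After quality trimming by the authors, GSNAP aligned reads against GRCm38 (mm10) and HTSeq 0.5.4p1 counted them per gene. The main table deposited by the authors holds read counts, not normalized, with the 3 lanes of each of 18 replicates combined (54 lane samples). A further deposited table holds normalized signal, the counts divided by size factors, from which whole reads were recovered (100% of values whole). Recovered reads equalled the counts for 92.7% to 94.2% of genes, but for 8.7% to 12.1% in ZT6 and ZT10 libraries. Symbols and exons came from GENCODE M21 on GRCm38, and promoters from RefSeq.

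The fit took genes for which over 6 replicates held 1 or more reads, with edgeR 4.0.16 in R 4.3.3 (TMM, quasi-likelihood F-tests, all replicates in 1 fit, Benjamini-Hochberg over 18941 genes, threshold 0.05). SE is the log2 difference divided by the root of F. JTK_CYCLE was rewritten in Python 3.11.15 (24 hr, 6 lags, exact null, Bonferroni over lags). DESeq2 1.42.0 and limma 3.58.1 (cosinor) served as alternatives, beside other normalizations and filters, recovered reads, a replicate block and leaving out each replicate. The joint test inside the clusters was chosen after seeing the data. Code was tested on simulated data. Depth varied 15412981 to 35820945 reads.

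The 10 genes and the related and marker lists were chosen with earlier results of these data known. All 10 are named. From each related list up to 3 genes are named with the smallest time p among those that changed without overlap between highest and lowest timepoints, and up to 2 with the highest mean CPM, and from each marker list the most abundant gene. One gene that this rule names is not reported here.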

Additional observations from a re-analysis of the deposited data

How the results depend on the processing

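Replicate letters did not pair the libraries. Over 45 same-letter pairs the correlation of deviations from the timepoint means was -0.191 to 0.104, 1 pair exceeded 0.1, and 9 of 18 libraries matched best with their own letter. With the letter as a replicate block, 5 of the 10 genes changed with time, 4 were cycling, 2 differed around the corticosterone rise, 0 in each of the other 4 comparisons, and 31 related genes changed. In the joint test inside the library clusters, 0 of the 10 and 1 of the related genes passed. With JTK_CYCLE adjusted over all genes, 3 of the 10 were cycling. DESeq2 called 1 gene in ZT14 minus ZT18, 1 in ZT10 minus ZT6, 1 in ZT14 minus ZT10 and 5 around the rise, and the cause was not tested. Leaving out 1 replicate gave 3 to 6 genes that changed, 3 to 5 cycling, 2 to 4 around the rise, 0 to 1 in ZT14 minus ZT10, 29 to 36 related genes and a p for the receptor ratio of 0.192 to 0.577. Upper-quartile normalization shifted the median of all genes by -0.15 (ZT14 minus ZT10) and -0.13 (around the rise), and *Sgk1* around the rise then had an adjusted p of 0.0601 (0.052 with DESeq2's size factors, 0.0533 with the block). Directions turned only for differences that no fit called. *Fkbp5* ZT14 minus ZT10 was -0.05 with upper-quartile normalization and -0.08 with recovered reads, *Ddit4* ZT10 minus ZT6 was 0.06 with recovered reads, and with the block *Plin4* was -0.06 in ZT2 minus ZT22, 0.14 in ZT10 minus ZT6 and 0.32 around the rise. With 1 replicate left out, signs turned in ZT14 minus ZT18 for *Nr3c1* (-0.24 to 0.35), *Nr3c2* (-0.59 to 0.29), *Pdk4* (-0.40 to 0.07) and *Cdkn1a* (-0.27 to 0.50), in ZT10 minus ZT6 for *Nr3c1* (-0.11 to 0.31), *Nr3c2* (-0.24 to 0.59), *Fkbp5* (-0.64 to 0.05), *Plin4* (-2.00 to 3.29) and *Ddit4* (-0.25 to 0.12), in ZT2 minus ZT22 for *Nr3c1* (-0.57 to 0.03), *Tsc22d3* (-0.18 to 0.11) and *Plin4* (-0.79 to 0.78), and around the rise for *Pdk4* (-0.07 to 0.34) and *Plin4* (-0.57 to 0.42). With few counts of *Plin4* (0 to 144 per library), small differences were not detectable at this depth.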
